A study of Homo sapiens with 6 samples.

Results

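The genes described here are 30 genes of cholesterol and fatty acid synthesis, chosen by symbol from pathway knowledge out of the 30717 genes with a row in the count table. They are 18 enzymes of the sterol pathway, 5 genes that sense or control sterols and 7 enzymes of fatty acid synthesis, and they hold 307 of the 136953 transcripts counted. The RNA-seq libraries come from T24 and UMUC3 (UM-UC-3 in the cell line label), 2 established lines of human bladder cancer, in which circPTK2 was knocked down. circPTK2 is a circular RNA whose exons belong to the gene PTK2. The groups were T24 circPTK2 knockdown (2 libraries), T24 control (1 library), UMUC3 circPTK2 knockdown (2 libraries) and UMUC3 control (1 library). Titles give the reagents as siRNAs and the series' design text as sh constructs, and the controls carry the title ending CON. The knockdown libraries of a line are numbered 1 and 2 as si-circPTK2-1 and si-circPTK2-2, so they carry differently numbered reagents and are taken here as replicates of the knockdown. Linear PTK2 RNA has the same exons, so the knockdown itself was not checked. No label states separate cultures for the 2 knockdown libraries of a line. A p-value here therefore reflects how much these libraries vary, and that variation may be technical or come from the reagents.

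Cells build cholesterol from acetyl-CoA by way of HMG-CoA, mevalonate, isoprenoid diphosphates, squalene and lanosterol. Fatty acids start from the same acetyl-CoA, which is carboxylated, polymerised to palmitate and then elongated and desaturated. Both routes are switched on by the SREBP transcription factors, membrane proteins that SCAP carries from the endoplasmic reticulum to the Golgi for cleavage when sterols are scarce, and that INSIG proteins hold back when sterols are plentiful. SREBP-2, from SREBF2, is known mainly for the sterol genes, and SREBP-1, from SREBF1, mainly for the fatty acid genes. Cancer cells commonly make their own lipids, and stearoyl-CoA desaturase and fatty acid synthase are among the enzymes best known for this.

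Libraries held 65111683 to 72362436 counts, of which 55071837 to 60780176 lay in named genes. All 30 genes passed the filter on low counts, as did 20721 genes in all. Mitochondrially encoded transcripts took 3.36 and 3.50% of the counts of the T24 knockdown libraries against 2.68% in the T24 control, and 4.26 and 4.62% against 4.62% in UMUC3. All 12 such genes tested were higher in T24 knockdown, each at an unadjusted p under 0.05 in edgeR (6.60% of all genes), with 0 called. In UMUC3, 9 of the 12 were lower and 3 higher (46.9 and 49.4% of all genes), with 0 called. Replication-dependent histone transcripts summed to 91.0 and 94.9 CPM, counts scaled to library size, in T24 knockdown libraries against 63.0 CPM in the control. In UMUC3 they summed to 76.5 and 74.6 CPM against 65.5 CPM. In both lines together 43 of 53 histone genes were positive (50.5% of all genes), and edgeR called 0. At an unadjusted p under 0.05 there were 8, where 5.95% of all genes were higher and 5.63% lower. The part of these, and of the markers below, in the results was not tested. Of 12 urothelial and epithelial markers, UPK1A, UPK1B, UPK2, KRT5, KRT20 and CDH1 lay at or near 0 in all 6 libraries, and the summed level of the list was 2539, 2642 and 2745 CPM in the T24 knockdown and control libraries and 171 to 188 CPM in UMUC3, nearly all of it from KRT7, KRT8 and KRT18 (and GATA3 in T24). Within that list, KRT18 had 425 and 389.6 CPM in T24 knockdown libraries against 836 CPM in the control (edgeR adjusted p = 0.0959), and KRT7 had 480 and 708 CPM against 171 CPM (adjusted p = 0.439). The immune list summed to 7.53 and 8.38 CPM against 9.34 CPM in T24, and to 54.6 and 51.4 CPM against 29.1 CPM in UMUC3. CD68 made up 54.2 and 51.2 CPM against 28.2 CPM of the UMUC3 sums (adjusted p = 0.122), while PTPRC, which defines leukocytes, lay at 0.0673 CPM or less in every library. CD14 went the other way, at 2.37 and 3.26 CPM against 5.07 CPM in T24 and 0.357 and 0.197 CPM against 0.896 CPM in UMUC3. The endothelial and fibroblast list summed to 70.4 and 73.0 CPM against 79.5 CPM in T24, and to 8.06 and 9.88 CPM against 5.77 CPM in UMUC3. Most of the T24 sums was CDH5, at 64.5 and 67.4 CPM against 75.5 CPM, which had 0 CPM in UMUC3. The adipocyte and hepatocyte list stayed at or below 1.08 CPM in all 6 libraries.

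Together the 30 genes took a smaller share of the RNA in every knockdown library than in the control of its line. The share of counts in named genes was 0.499 and 0.488% in the T24 knockdown libraries, against 0.614% in the T24 control. In UMUC3 it was 0.405 and 0.411% in the knockdown libraries, against 0.534% in the control. The sterol enzymes made up 0.154 and 0.152% of counts in the T24 knockdown libraries against 0.190% in the control, and 0.126 and 0.125% against 0.186% in UMUC3. The fatty acid enzymes made up 0.257 and 0.248% in T24 knockdown libraries against 0.319% in the control, and 0.210 and 0.212% against 0.272% in UMUC3. The 5 regulators stood closer, at 0.0890 and 0.0878% against 0.104% in T24 and at 0.0689 and 0.0735% against 0.0755% in UMUC3. With 1 control library a line, a trait of that library and an effect of the knockdown cannot be told apart, and in bulk RNA less RNA per cell and fewer cells of a kind cannot be told apart either.

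**Figure D1:**
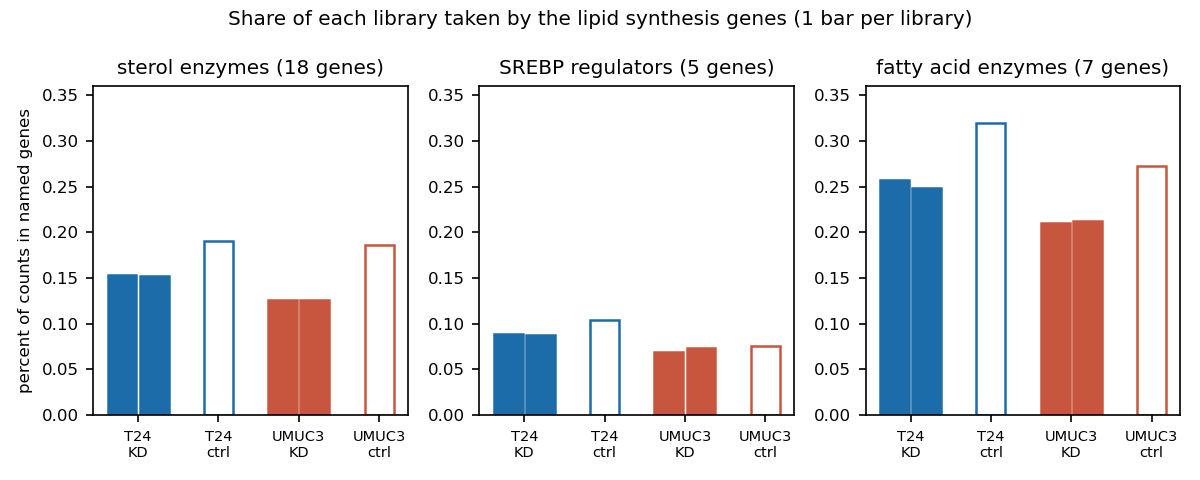
Share of the counts in named genes (percent, y axis from 0) taken by the sterol enzymes, the SREBP regulators and the fatty acid enzymes, with 1 bar per library, filled for knockdown (KD) and open for control (ctrl). In the sterol panel the knockdown bars stand at 0.154 and 0.152% in T24 and at 0.126 and 0.125% in UMUC3, below the open bars at 0.190 and 0.186%.

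Gene by gene, 22 of the 30 were lower in both T24 knockdown libraries than in the T24 control, where 37.3% of all genes tested were, and 5 were higher in both (34.7% of all genes). In UMUC3, 20 of the 30 were lower in both knockdown libraries (37.1% of all genes) and 5 were higher in both (35.6%). In all 4 knockdown libraries, 16 of the 30 lay below the control of their line, against 15.1% of all genes, and none lay above it, against 13.3%. The 16 were the sterol enzymes ACAT2, HMGCS1, MVK, IDI1, FDPS, FDFT1, LSS, CYP51A1, MSMO1, NSDHL, HSD17B7 and DHCR7, the regulator SREBF2, and the fatty acid enzymes FASN, SCD and FADS1. The median log2 fold change of the 30, knockdown over control, was -0.30 with both lines together, -0.25 in T24 and -0.38 in UMUC3, beside medians of 0.01, 0.00 and 0.00 over all genes tested. The T24 median was -0.136 with the dominant transcript of each gene alone. In the fit, 25 of the 30 were lower in both lines together (49.5% of all genes), 25 were lower and 5 higher in T24 (50.8 and 49.2%), and 24 were lower and 6 higher in UMUC3 (46.9 and 49.4%).

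**Figure D2:**
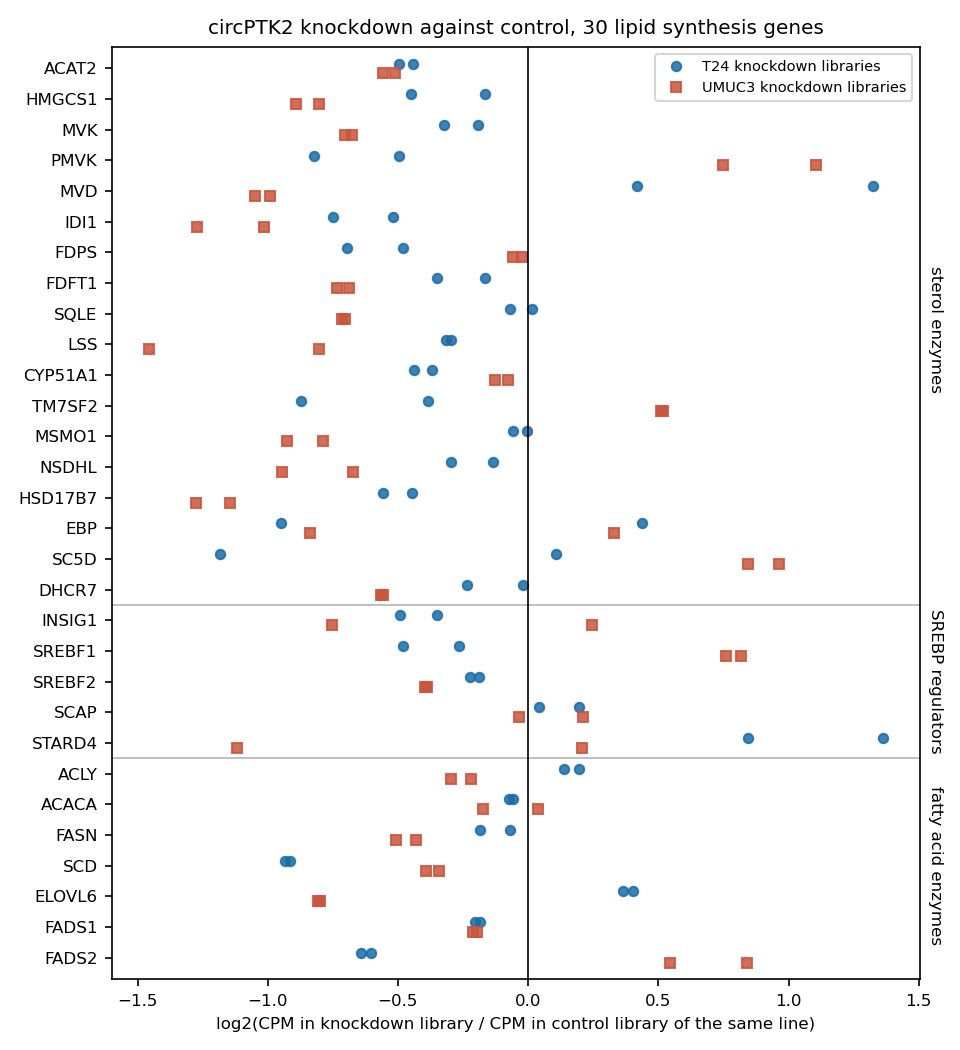
log2 ratio of CPM in each knockdown library to CPM in the control library of the same line (x axis) for the 30 genes in pathway order (y axis), with circles for T24 and squares for UMUC3 and 2 symbols a gene and line. In 16 genes all 4 symbols lie left of 0, as for IDI1, HSD17B7 and SCD, and in 7 genes the lines lie on opposite sides, as for SREBF1, MVD and ELOVL6.

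None of these 30 genes passed an adjusted p of 0.05 in edgeR's quasi-likelihood test of knockdown against control, in both lines together, in T24 or in UMUC3. That test called few genes at all: 0.00965% of genes lower and 0.00483% higher in both lines together, 0.0434 and 0.0917% in T24, and 0.217 and 0.430% in UMUC3. At an unadjusted p under 0.05, 11 of the 30 were lower and 0 higher in both lines together (5.63 and 5.95% of all genes), 8 were lower and 1 higher in T24 (5.94 and 6.60%), and 16 were lower and 3 higher in UMUC3 (7.62 and 9.22%). DESeq2's Wald test, which called 2.24% of genes lower and 2.49% higher in both lines together, put 4 of the 30 past an adjusted p of 0.05 there, all lower: ACAT2, HSD17B7, IDI1 and SCD. It called SCD alone in T24 (1.89% of genes lower, 2.84% higher), and 11 lower genes and 1 higher gene in UMUC3 (3.2 and 5.08%). limma voom called 0 of the 30 in these comparisons. Of all genes it called 0.00965% lower and 0 higher in both lines together, and 0 in T24 and in UMUC3. The fold changes below are therefore given as measured values that did not pass the main test.

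From acetyl-CoA to farnesyl diphosphate, 5 enzymes lay below the control in all 4 knockdown libraries. IDI1 (chr10:1039152-1049170, minus strand of GRCh38 in GENCODE 29), the isomerase that interconverts isopentenyl and dimethylallyl diphosphate, had 50.5 and 59.4 CPM in the T24 knockdown libraries against 85.1 CPM in the control. In UMUC3 it had 29.3 and 35.0 CPM in the knockdown libraries against 70.7 CPM in the control. No knockdown library overlapped its control, and the log2 fold change over both lines was -0.89 ± 0.18 (SE; adjusted p = 0.198 in edgeR, 0.00392 in DESeq2). ACAT2, the cytosolic thiolase that opens the pathway, had 138 and 143 CPM in T24 knockdown libraries against 195 CPM in the control, and 121 and 125 CPM against 178 CPM in UMUC3. Its knockdown libraries were nearly equal within each line, and it had the smallest p of the 30 in both lines together (log2 fold change -0.50 ± 0.10, edgeR adjusted p = 0.193). HMGCS1, which condenses acetyl-CoA with acetoacetyl-CoA to HMG-CoA, had 138 and 168 CPM in T24 knockdown libraries against 188 CPM in the control, and 94.9 and 89.2 CPM against 166 CPM in UMUC3. MVK, mevalonate kinase, had 69.6 and 63.5 CPM against 79.5 CPM in T24, and 36.4 and 37.2 CPM against 59.4 CPM in UMUC3. FDPS, which makes farnesyl diphosphate, had 77.0 and 89.3 CPM in T24 knockdown libraries against 125 CPM in the control, while in UMUC3 it had 78.1 and 76.3 CPM against 79.4 CPM. The difference between the lines in FDPS had an adjusted p of 0.372 in edgeR.

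From squalene synthesis onward, 7 enzymes lay below the control in all 4 knockdown libraries. FDFT1, squalene synthase, had 154 and 175 CPM in T24 knockdown libraries against 196 CPM in the control, and 96.0 and 99.2 CPM against 160 CPM in UMUC3. SQLE, the epoxidase that follows it, had 181 and 192 CPM against 190 CPM in T24, on both sides of the control, and 120.5 and 119.6 CPM against 196 CPM in UMUC3 (UMUC3 log2 fold change -0.71 ± 0.09, edgeR adjusted p = 0.077). MSMO1 (chr4:165327623-165343160, plus strand), which oxidises the C4 methyl group of the sterol ring, had 121.3 and 125.9 CPM against 126.3 CPM in T24, and 108 and 119 CPM against 205 CPM in UMUC3. Its fold change in UMUC3, -0.85 ± 0.11 on the log2 scale, had the smallest p of the 30 there (edgeR adjusted p = 0.0746, DESeq2 0.000178). HSD17B7 (chr1:162790702-162812817, plus strand), the 3-keto sterol reductase, was low throughout, with 15.5 and 16.7 CPM in T24 knockdown libraries against 22.8 CPM in the control and 5.40 and 4.95 CPM against 11.97 CPM in UMUC3. It had the lowest fold change of the 30 in UMUC3, -1.21 ± 0.21 on the log2 scale. Its pseudogene HSD17B7P2 held 34 to 202 counts a library and was likewise highest in the control of each line, and reads shared between the pair could be split by the counting. CYP51A1, lanosterol demethylase, had 132 and 138 CPM in T24 knockdown libraries against 179 CPM in the control, and 200 and 193 CPM against 211 CPM in UMUC3. LSS, lanosterol synthase, also lay below the control in all 4 knockdown libraries, with log2 fold changes of -0.30 ± 0.29 in T24 and -1.09 ± 0.29 in UMUC3. So did NSDHL, a sterol C4 decarboxylase, at -0.21 ± 0.17 in T24 and -0.80 ± 0.17 in UMUC3. DHCR7, which acts at the end of the pathway, was at -0.12 ± 0.13 in T24, where 1 knockdown library had 134 CPM against 136 CPM in the control, and at -0.56 ± 0.13 in UMUC3.

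Of the other sterol enzymes, PMVK and TM7SF2 lay below the control in T24 and above it in UMUC3. PMVK, phosphomevalonate kinase, had 25.4 and 20.3 CPM in T24 knockdown libraries against 35.9 CPM in the control, but 22.99 and 18.0 CPM against 10.7 CPM in UMUC3. TM7SF2, a sterol C14 reductase, had 16.04 and 11.4 CPM against 20.9 CPM in T24, and 5.26 and 5.29 CPM against 3.69 CPM in UMUC3. MVD, mevalonate diphosphate decarboxylase, lay the other way, with 55.7 and 29.7 CPM against 22.2 CPM in T24 and 16.8 and 16.2 CPM against 33.4 CPM in UMUC3. EBP, the sterol isomerase, lay on both sides of the control in each line, and SC5D, lathosterol oxidase, on both sides in T24 and above the control in UMUC3.

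Upstream DNA of 5 genes that were lower in all 4 knockdown libraries is shown to set out the letters that SREBPs and their partner NF-Y are known to bind, a sterol regulatory element and a CCAAT box. The sequences are RefSeq promoter windows on GRCh38.p14, read 5′ to 3′ on the strand of the gene from 220 bases before the start and cut before any exon of a protein-coding transcript in GENCODE 29. Capitals mark 3 motifs: the core TCACNCCA, the full sterol regulatory element, which is that core with A before it and C after it, and CCAAT, which reads ATTGG on the opposite strand. HMGCS1 lies at chr5:43313513-43313632 (minus strand), IDI1 at chr10:1049171-1049339 (minus), MSMO1 at chr4:165327449-165327622 (plus), HSD17B7 at chr1:162790482-162790672 (plus) and SREBF2 at chr22:41832885-41833075 (plus), the last within an antisense RNA gene.
HMGCS1: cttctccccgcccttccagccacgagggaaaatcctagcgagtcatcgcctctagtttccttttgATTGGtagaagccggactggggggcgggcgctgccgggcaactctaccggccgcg
IDI1: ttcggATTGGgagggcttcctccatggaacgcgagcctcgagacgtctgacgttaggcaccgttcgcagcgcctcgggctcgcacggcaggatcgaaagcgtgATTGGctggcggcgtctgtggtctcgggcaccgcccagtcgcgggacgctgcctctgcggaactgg
MSMO1: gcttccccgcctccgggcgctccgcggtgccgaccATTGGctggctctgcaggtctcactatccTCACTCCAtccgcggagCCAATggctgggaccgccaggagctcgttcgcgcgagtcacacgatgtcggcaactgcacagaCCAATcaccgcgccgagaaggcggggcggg
HSD17B7: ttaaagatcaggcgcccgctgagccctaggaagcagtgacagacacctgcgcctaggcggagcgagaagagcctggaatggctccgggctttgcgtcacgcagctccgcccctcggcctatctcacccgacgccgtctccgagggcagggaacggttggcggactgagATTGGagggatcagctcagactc
SREBF2: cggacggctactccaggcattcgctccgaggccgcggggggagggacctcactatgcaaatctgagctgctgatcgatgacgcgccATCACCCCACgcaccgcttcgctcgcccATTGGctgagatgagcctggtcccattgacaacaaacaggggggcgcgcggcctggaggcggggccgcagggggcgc

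Of the 26 genes with a RefSeq window, which runs from upstream of the start to 50 bases after it, SREBF2 was the only one to hold the full sterol regulatory element on either strand, with its first base 134 bases before the start, as did 0.190% of all 27305 genes with a window. The shorter TCACNCCA, which every full element also contains, was found in MSMO1, MVK and SREBF2, 3 of 26 genes (11.5%), against 4.81% of all genes. CCAAT was found in 20 of the 26 (76.9%), among them 13 of 15 sterol enzymes, against 39.7% of all genes and 42.1% of the 15842 protein-coding ones. The E-box CACGTG was found in 4 of 26 (15.4%), INSIG1, LSS, SC5D and SCAP, against 8.77% of all genes. These counts describe letters in short windows and not binding, and sites outside them were not searched.

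Of the regulators, SREBF2 lay below the control in all 4 knockdown libraries and SREBF1 lay on opposite sides of the control in the lines. SREBF2 (chr22:41833079-41907308, plus strand), which encodes SREBP-2, had 482 and 471 CPM in T24 knockdown libraries against 550.2 CPM in the control, and 333 and 335 CPM against 438 CPM in UMUC3. The log2 fold change over both lines was -0.30 ± 0.09 (edgeR adjusted p = 0.316). SREBF1 (chr17:17810399-17837002, minus strand), which encodes SREBP-1, had 207 and 239.6 CPM in T24 knockdown libraries against 288 CPM in the control. In UMUC3 it had 171 and 165 CPM in the knockdown libraries against 97.2 CPM in the control, so both knockdown libraries were higher there. Its log2 fold change was -0.37 ± 0.12 in T24 (edgeR adjusted p = 0.372) and 0.79 ± 0.13 in UMUC3 (edgeR adjusted p = 0.104, DESeq2 0.0061). INSIG1, itself a known SREBP target, had 61.0 and 55.3 CPM against 77.7 CPM in T24, and 52.7 and 105.3 CPM against 88.8 CPM in UMUC3, where the knockdown libraries straddled the control. SCAP had 96.9 and 87.1 CPM against 84.6 CPM in T24, and 125.6 and 105.8 CPM against 108 CPM in UMUC3, within or near the spread of its knockdown pair. STARD4, which carries cholesterol between membranes, had 63.0 and 44.0 CPM against 24.5 CPM in T24, and 5.87 and 14.7 CPM against 12.8 CPM in UMUC3.

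Among the fatty acid enzymes SCD stood out. SCD (chr10:100347124-100364834, plus strand) puts the first double bond into saturated fatty acids and was, with ACLY, the most abundant of the 30 per transcript length, at a mean level of 276 TPM over 6 libraries against 277 TPM for ACLY (TPM being counts scaled by transcript length and library). It had 569 and 563 CPM in the T24 knockdown libraries and 1074 CPM in their control, and 684 and 709 CPM against 899 CPM in UMUC3. The mean of the T24 pair was 52.7% of the control, and that of the UMUC3 pair 77.5%. The T24 log2 fold change of -0.92 ± 0.06 had an adjusted p of 0.0569 in edgeR and 4.79e-07 in DESeq2. SCD alone accounted for most of the lower fatty acid share in T24: without it the other 6 genes took 0.201 and 0.193% of the T24 knockdown libraries against 0.211% of the control, whereas in UMUC3 they took 0.142 and 0.141% against 0.181%. FASN, fatty acid synthase, had 794 and 734 CPM in T24 knockdown libraries against 834 CPM in the control, and 581 and 549.6 CPM against 782 CPM in UMUC3. ACACA, the carboxylase that makes malonyl-CoA, had 163 and 165 CPM against 172 CPM in T24 and 153 and 132 CPM against 149 CPM in UMUC3. ACLY, which frees acetyl-CoA from citrate, had 703 and 676 CPM against 614 CPM in T24, and 479.6 and 506 CPM against 589 CPM in UMUC3.

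ELOVL6 and FADS2 lay on opposite sides of the control in the lines, and FADS1 below it in both. ELOVL6 (chr4:110045846-110199199, minus strand), which elongates palmitate to stearate, had 30.1 and 29.4 CPM in T24 knockdown libraries against 22.8 CPM in the control, and 74.8 and 74.5 CPM against 130.2 CPM in UMUC3. FADS2, the delta-6 desaturase, had 49.9 and 48.6 CPM against 75.8 CPM in T24, and 20.9 and 17.02 CPM against 11.7 CPM in UMUC3. FADS1, the delta-5 desaturase, had 314 and 318 CPM against 362 CPM in T24, and 109 and 108 CPM against 125 CPM in UMUC3, a log2 fold change of -0.19 ± 0.08 in T24 and -0.21 ± 0.08 in UMUC3. The difference between the lines had an edgeR adjusted p of 0.155 for ELOVL6 and 0.209 for FADS2. FADS1 and FADS2 overlap on opposite strands for 29694 bases, and without strand information reads from the overlap cannot be told apart. FADS2 also overlaps FEN1 on the same strand for 4265 bases, and in the UMUC3 control FEN1 held 10508 counts against 651 for FADS2. Shorter overlaps with genes on the opposite strand were those of ACAT2 with TCP1 (558 bases), SREBF1 with RAI1 (1055) and MVK with MMAB (620), among others. TCP1 held 15758 to 49603 counts a library, RAI1 6198 to 17283 and MMAB 1021 to 2635.

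**Figure D3:**
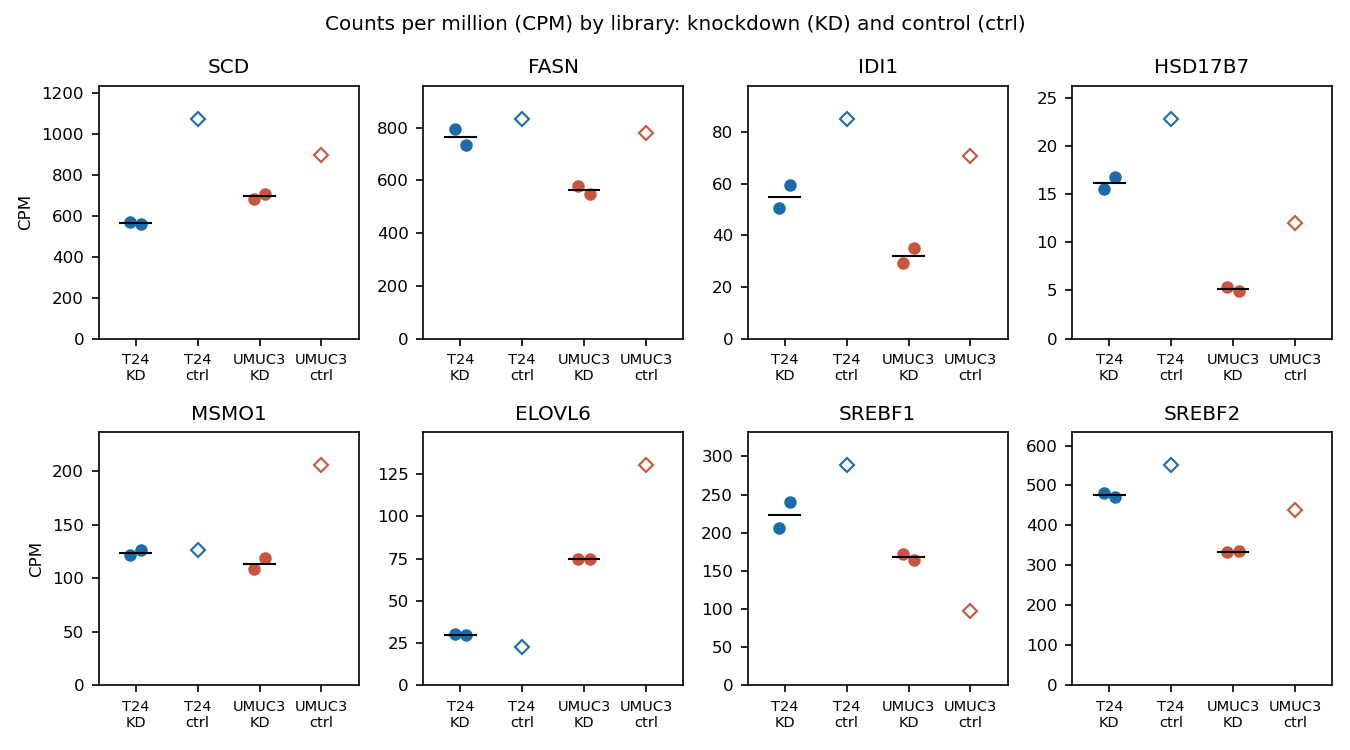
CPM (y axes from 0) of 8 genes in each library, with filled circles for knockdown (KD), open diamonds for control (ctrl) and a line at the mean of 2 knockdown libraries. SCD lay at 569 and 563 CPM in T24 knockdown against 1074 CPM in control, and SREBF1 and ELOVL6 lay on opposite sides of the control in the lines.

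The difference between the lines in the knockdown effect, T24 minus UMUC3, passed for 0 of the 30 genes in edgeR (0.0386% of genes lower and 0.0193% higher), with 4 lower and 6 higher at an unadjusted p under 0.05 (7.19 and 6.27%). DESeq2 called 5, against 2.90% of genes lower and 2.50% higher. The difference in effect was negative for SREBF1, FADS2 and PMVK, and positive for MSMO1 and ELOVL6. The smallest edgeR p-values were those of ELOVL6, with a difference of 1.19 ± 0.18 on the log2 scale (adjusted p = 0.155), SREBF1 at -1.16 ± 0.18 (0.161), SCD at -0.56 ± 0.09 (0.167) and MSMO1 at 0.82 ± 0.16 (0.198). In 4 genes both T24 knockdown libraries lay below and both UMUC3 knockdown libraries above the control (PMVK, TM7SF2, SREBF1 and FADS2; 12.3% of all genes), and in 3 the reverse held (MVD, ACLY and ELOVL6; 12.1%). In the fit the difference was positive in 20 genes and negative in 10 (49.3 and 50.7% of all genes). The sterol enzymes had a median log2 fold change of -0.70 in UMUC3 and -0.30 in T24, with 14 of 18 below the control in both knockdown libraries of each line.

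Between the lines themselves, more of the 30 genes passed the test, at about the share found among all genes. Over 3 libraries a line, 12 of the 30 passed an adjusted p of 0.05 in edgeR, 10 of them higher in T24 (21.3% of all genes were) and 2 lower (18.9%). At an unadjusted p under 0.05 it was 15 higher (26.1%) and 3 lower (23.8%), and DESeq2 called 14 (24.8% of genes higher and 22.3% lower). In the fit, 23 of the 30 were higher in T24 and 7 lower (50.6 and 49.4%). All 3 T24 libraries lay above all 3 UMUC3 libraries for 10 genes (27.2% of all genes) and below them for 4 (25.1%). FADS1 had the smallest p. FADS1 (chr11:61799625-61829318, minus strand) had 314, 318 and 362 CPM in T24 against 109, 108 and 125 CPM in UMUC3, a log2 fold change of 1.54 ± 0.09 (adjusted p = 0.000167). FADS2 had 49.9, 48.6 and 75.8 CPM in T24 against 20.9, 17.02 and 11.7 CPM in UMUC3 (1.81 ± 0.31, adjusted p = 0.00658). ELOVL6 ran the other way, with 30.1, 29.4 and 22.8 CPM in T24 against 74.8, 74.5 and 130.2 CPM in UMUC3 (-1.72 ± 0.27, adjusted p = 0.00487). The late sterol enzymes HSD17B7 (1.39 ± 0.22, adjusted p = 0.00543) and TM7SF2 (1.74 ± 0.31, adjusted p = 0.00781) were higher in T24, as was STARD4 (1.90 ± 0.48, adjusted p = 0.0277). Smaller differences toward T24 were called for MVK, FDFT1, IDI1, HMGCS1 and SREBF2, at 0.45 to 0.71 on the log2 scale. CYP51A1 was lower in T24 at -0.44 ± 0.11 (adjusted p = 0.0245). Of these, FDFT1, IDI1 and HMGCS1 overlapped between the lines. Between the control libraries alone, with no test, the log2 ratio was 0.42 for MVK, 0.30 for FDFT1 and 0.27 for IDI1. It was 0.18 for HMGCS1, 0.33 for SREBF2 and -0.24 for CYP51A1. The number called between the lines was 6 without T24 knockdown replicate 1 or without UMUC3 knockdown replicate 2, 7 without either other knockdown library, and 19 without either control. The share of all genes called in those fits is not given, so these counts cannot be read as a trait of the 30 genes. SREBF1 lay higher in all T24 libraries but did not pass (0.79 ± 0.26, adjusted p = 0.055), and SCD and FASN overlapped between the lines.

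**Figure D4:**
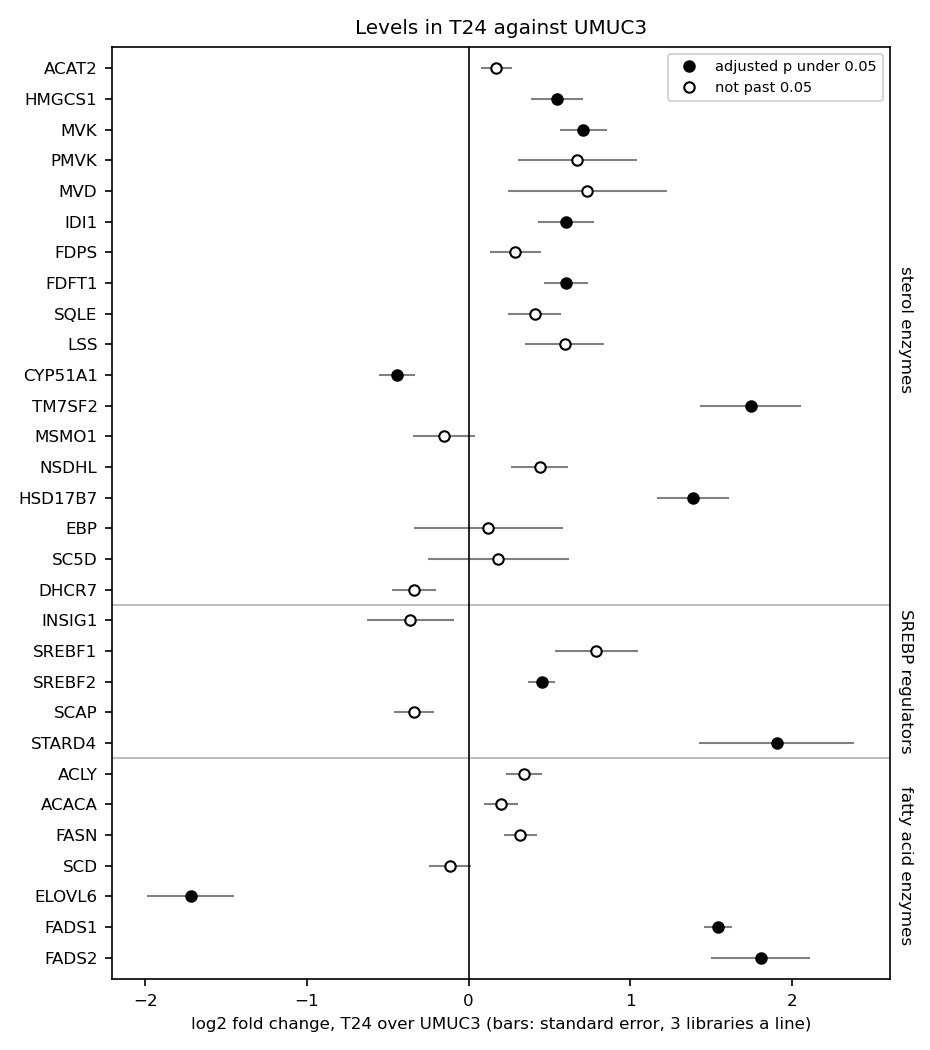
log2 fold change of T24 over UMUC3 (x axis) with its standard error over 3 libraries a line for the 30 genes in pathway order (y axis), filled where the edgeR adjusted p is under 0.05. The 12 filled points run from ELOVL6 at -1.72 to STARD4 at 1.90.

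The counts of a gene are sums over its annotated transcripts, and in several of the 30 those transcripts were not protein-coding or traded counts between libraries. The largest share of counts that moved between transcripts among 2 libraries of a line reached 0.2 in 20 of the 30, and 8 of the 28 genes with 2 or more transcripts (28.6%) stayed under it in both lines, against 30.9% of all tested genes with 2 or more transcripts. Those 8 were ACAT2, HMGCS1, IDI1, SQLE, CYP51A1, SREBF2, FASN and FADS1. PMVK and SCD have 1 transcript each. When only the 4467 genes of stable composition were fitted, 6 of the 8 passed an adjusted p of 0.05 as lower in UMUC3 knockdown (5.51% of genes there), with ACAT2 at 0.0283, HMGCS1 at 0.0351, IDI1 at 0.0278, SQLE at 0.0178, FASN at 0.0357 and SREBF2 at 0.0328. In T24, in both lines together and in the difference between lines, 0 of the 8 passed in that fit, at smallest adjusted p-values of 0.0577, 0.0661 and 0.0597. Of all genes fitted there, 1.88% were called lower and 2.37% higher in T24. The shares were 0.761 and 0.358% in both lines together, and 1.95 and 1.52% for the difference. At the other end, SC5D counts lay on transcript ENST00000392789 at 81.7 and 40.3% in the T24 knockdown libraries against 0.267% in the control, and at 82.1 and 0.303% against 0.074% in UMUC3, so the 2 knockdown libraries of a line differed from each other.

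Counting only transcripts that GENCODE 29 types as protein-coding left 13 of the 30 genes below the control in all 4 knockdown libraries, against 15.3% of all genes in that form, and none above, against 14.9%. FDPS, MSMO1 and DHCR7 were no longer among them. All counts of MSMO1 lie on protein-coding transcripts, so only its scaling differed. Its T24 knockdown libraries then had 136.0 and 141.7 CPM against 140.7 CPM in the control. In MVD, protein-coding transcripts held 12.3 and 43.9% of the counts in T24 knockdown libraries against 56.4% in the control, and 27.1 and 26.2% against 61.2% in UMUC3, while a retained-intron transcript held 79.6, 41.6 and 27.6% of the T24 counts and 56.2, 53.4 and 21.1% of the UMUC3 counts. Its protein-coding level in UMUC3 was 5.37 and 5.02 CPM in knockdown libraries against 24.4 CPM in the control (log2 fold change -2.23 ± 0.47, edgeR adjusted p = 0.145). In T24 that level was 7.66 and 14.7 CPM against 13.96 CPM, on both sides of the control. The opposite sides of MVD in the lines were thus not seen in this form. SREBF1 kept its opposite sides, with protein-coding log2 fold changes of -0.82 ± 0.15 in T24 and 0.78 ± 0.16 in UMUC3 (adjusted p = 0.188 and 0.142). LSS, EBP, TM7SF2 and SCAP had at most 51.8% of their counts on protein-coding transcripts in every library. No gene of the 30 passed a knockdown comparison in this form, in which 0.00712% of genes or fewer were called in either direction in T24, in UMUC3 and in both lines together.

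**Figure D5:**
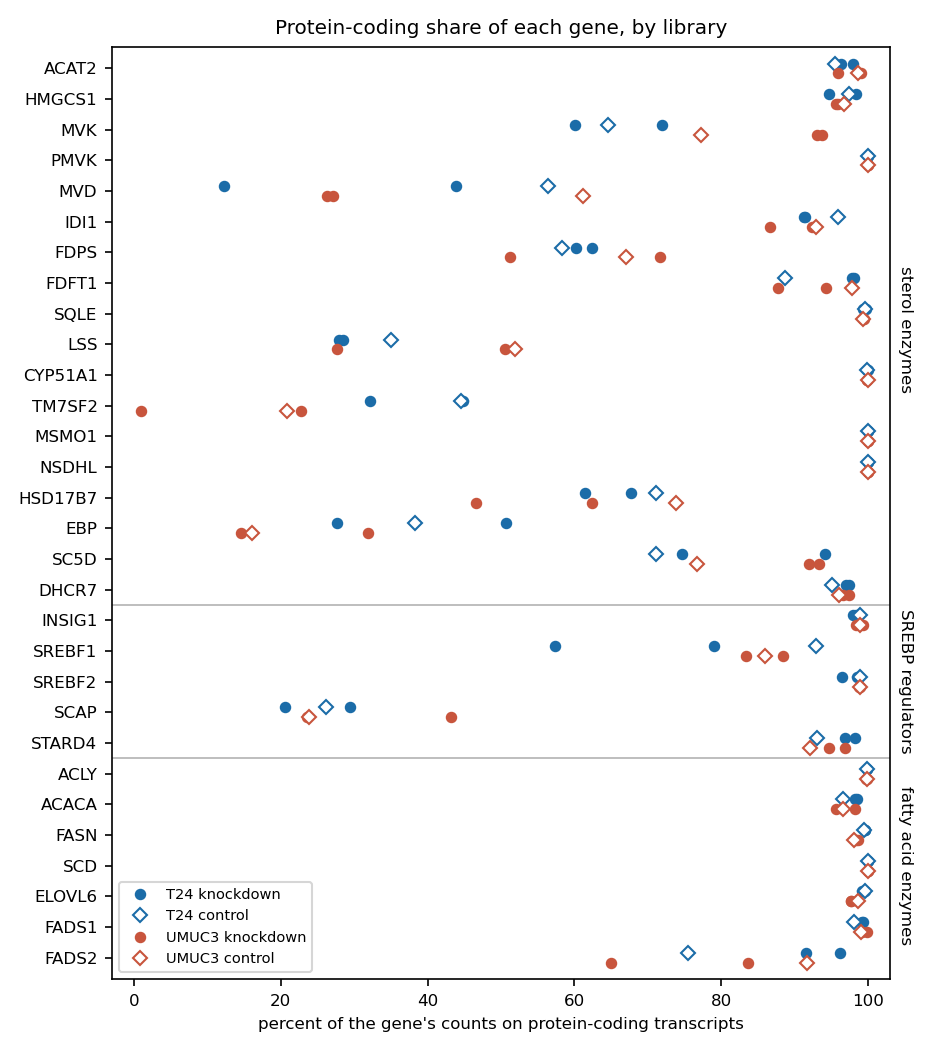
Percent of each gene's counts on protein-coding transcripts (x axis) in the 6 libraries for the 30 genes in pathway order (y axis), with filled circles for knockdown and open diamonds for control. MVD lies at 12.3 to 43.9% in knockdown libraries against 56.4 and 61.2% in the controls, while genes such as SCD, FASN and SQLE lie above 98% in every library.

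Neighbouring pathways were read the same way. Of 10 genes of SREBP processing and sterol-regulated degradation, 9 of the nonsterol branch of the mevalonate pathway, 12 of sterol uptake, transport, esterification and efflux, and 19 of other fatty acid and triglyceride synthesis, edgeR called 0 in any knockdown comparison. In both lines together their median log2 fold changes were 0.07, -0.13, 0.04 and -0.17, with 3 of 10, 6 of 9, 6 of 12 and 13 of 19 negative. At an unadjusted p under 0.05 there were 2, 1, 3 and 3 genes. Of all genes tested, 49.5% were negative, and 5.63% were lower and 5.95% higher at that p. The gene of smallest p in each list was ERLIN2, an endoplasmic reticulum membrane protein, with 58.8 and 47.0 CPM against 22.1 CPM in T24 and 30.8 and 26.5 CPM against 18.2 CPM in UMUC3 (0.95 ± 0.22, edgeR adjusted p = 0.24). In the nonsterol branch it was DHDDS, which makes dolichol precursors, with 39.5 and 39.0 CPM against 45.2 CPM in T24 and 30.3 and 27.4 CPM against 48.2 CPM in UMUC3 (adjusted p = 0.394). In sterol transport it was NR1H2, the sterol-sensing receptor LXR-beta, with 70.8 and 66.2 CPM against 49.9 CPM in T24 and 133 and 132.5 CPM against 84.99 CPM in UMUC3 (0.55 ± 0.12, adjusted p = 0.226). In the last list it was ACSL3, which activates fatty acids to acyl-CoA, with 67.2 and 73.6 CPM against 142 CPM in T24 and 25.4 and 38.9 CPM against 56.3 CPM in UMUC3 (-0.91 ± 0.20, adjusted p = 0.219). In single lines the smallest p-values lay with COQ2 and the same ERLIN2, NR1H2 and ACSL3 in T24, and, in the last 3 lists, with PDSS2, OSBP and ACSL1 in UMUC3, at adjusted p-values of 0.0887 or more.

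Between the lines, edgeR called 0 of 10, 2 of 9, 4 of 12 and 4 of 19 genes of the neighbouring lists lower in T24, against 18.9% of all genes, and 2 of 10, 1 of 9, 4 of 12 and 8 of 19 higher, against 21.3%. MBTPS1, the site-1 protease that cleaves SREBPs, had 142, 140 and 157 CPM in T24 against 96.0, 121 and 91.3 CPM in UMUC3. VLDLR, a lipoprotein receptor, had 11.9, 13.1 and 11.5 CPM against 64.3, 57.3 and 42.7 CPM, and SCARB1, the HDL receptor, 33.4, 29.8 and 33.1 CPM against 80.0, 78.6 and 87.1 CPM. ABCG1, a sterol exporter, had 1.97, 2.20 and 3.74 CPM in T24 and was at or near 0 in UMUC3. NUS1, which works with DHDDS, and FNTA, a prenyltransferase subunit, were lower in T24, at -1.25 ± 0.17 and -0.49 ± 0.13 on the log2 scale, and COQ2, of coenzyme Q synthesis, was higher at 0.77 ± 0.17. In the fatty acid list ACSS2, which makes acetyl-CoA from acetate, was higher in T24 at 1.32 ± 0.13, SLC25A1, the mitochondrial citrate carrier, at 1.44 ± 0.18 and the elongase ELOVL7 at 3.12 ± 0.31 on the log2 scale.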

How the data were processed

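RNA of 6 libraries from 2 bladder cancer lines was measured by sequencing. The authors deposited raw read counts per transcript, with no normalisation. Per the submitters' processing notes, the build was hg38 and the tools included StringTie 1.3.3b, HISAT2 2.1.0 and FastQC 0.11.5. No source used here gives the strandedness. Of the transcripts, 121915 carried a gene and were summed by gene, and 15038 carried none. Those without a gene took 14.9 to 16.1% of each library and entered neither library sizes nor tests. In T24 the numbers 1 and 2 are exchanged between titles and column names, and replicate numbers here are those of the titles.

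Genes reaching 10 counts in 2 or more libraries, with a total of 30 or more, were fitted with edgeR 4.0.16 in R 4.3.3 (TMM scaling, robust quasi-likelihood fit, Benjamini-Hochberg adjustment over all 20721 genes, threshold 0.05). Both lines together and T24 against UMUC3 had the terms line and knockdown. Single lines and their difference were fitted with 4 groups, the lone control being assumed to vary like the knockdown pair. Errors of fold changes are standard errors. CPM are counts scaled by library size and TMM factors, and TPM use GENCODE 29 transcript lengths (121842 transcripts matched). The procedure was tested on simulated data. DESeq2 1.42.0, limma 3.58.1 voom and the other alternatives are in the closing section.

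Full values are given for genes past the threshold, for the 8 genes of smallest p in both lines together, 5 in each line, 4 in the difference and 6 between lines, and for SREBF1, SREBF2, SCAP and INSIG1. From the neighbouring lists, up to 3 genes past the threshold or the 1 of smallest p are named. Other genes of the 30 given in full were added after their values were seen. The members and lists were chosen with earlier results of these data known. Some genes of the pathway are not reported here.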

Additional observations from a re-analysis of the deposited data

How the results depend on the processing

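In the knockdown comparisons the median log2 fold change of the 30 genes kept its sign under every alternative run. The number of genes past the threshold was 0 and became 4 in both lines together, 1 in T24, 12 in UMUC3 and 5 for the difference between lines with DESeq2. It became 1 in T24 with no low-count filter (SCD, adjusted p = 0.0442). In UMUC3 it became 6 of 8 among composition-stable genes, where fewer genes were tested and 5.51% were called lower. The T24 median of -0.255 became -0.136 with the dominant transcript of each gene alone, and FADS2 in T24 then turned to 0.142 on the log2 scale. The UMUC3 median of -0.379 ranged from -0.56 to -0.365 when 1 library was left out, the first without UMUC3 knockdown replicate 2. Between the lines, the 12 called genes became 6 with the dominant transcript, 6 among composition-stable genes, 19 with knockdown libraries only, and 6 to 19 when 1 library was left out (6 without T24 knockdown replicate 1 or UMUC3 knockdown replicate 2, 7 without either other knockdown library, 19 without either control). The line median of 0.424 became 0.295 with protein-coding transcripts only. FADS1, FADS2, ELOVL6 and HSD17B7 passed between the lines in every alternative in which they were tested. The cause of these changes was not tested. The protein-coding form and the older quasi-likelihood setting were chosen after seeing the data.

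Deviations of same-numbered knockdown libraries were almost uncorrelated between the lines, at r = 0.011 across 20721 genes by title number. By column number r was -0.011, the same value with its sign turned because the T24 numbers are exchanged, and so no separate check. Genes are not independent replicates, and each deviation rests on single libraries. Whether same-numbered libraries share a reagent or batch was therefore not tested. With a term for the library number in the fit, 0 of the 30 genes passed in any knockdown comparison under both numberings. Those fits called 0 of all 20721 genes in both lines together and in T24, so this is no trait of the 30 genes. Between the lines 9 passed (8 higher and 1 lower in T24) under both, with the share of all genes not given. Each line has 1 control, so its own spread was not measured. The lowest count of any of the 30 genes was 206, for TM7SF2 in the UMUC3 control. Over all genes, edgeR called 3 in both lines together, 28 in T24, 134 in UMUC3 and 12 for the difference, where DESeq2 called 981, 980, 1717 and 1119, and the other alternatives called 0 to 134, 0 to 190, 0 to 582 and 0 to 155.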

Other observations

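INSIG2, which like INSIG1 holds SCAP in the endoplasmic reticulum, had 0.975 and 1.83 CPM in T24 knockdown libraries, against 26.9 CPM in their control, and 2.64 and 13.7 CPM against 8.49 CPM in UMUC3. HACD3, a dehydratase of fatty acid elongation, had 79.1 and 70.2 CPM in T24 knockdown libraries against 191 CPM in the control, and 366 and 149 CPM against 156 CPM in UMUC3. FNTB, the beta subunit of farnesyltransferase, had 48.9 and 49.0 CPM against 14.4 CPM in T24, and 2.89 and 11.3 CPM against 47.1 CPM in UMUC3. These 3 genes were chosen after their values were seen and did not pass edgeR's test in any knockdown comparison.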
